A study of Mus musculus with 7 samples.

Results

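The genes described here move cholesterol out of cells and handle it on lipoproteins. They are 10 gene symbols: the cholesterol exporters Abca1 and Abcg1, the liver X receptors Nr1h2 and Nr1h3, the apolipoproteins Apoc1 and Apoe, the high-density lipoprotein receptor Scarb1, the phospholipid transfer protein Pltp, the cholesterol acyltransferase Lcat and the lipoprotein lipase Lpl. The members were every probe set of the deposited value table that the platform annotation ties to exactly 1 of these symbols. Probe sets were found for 9 of the 10 genes, out of 22180 genes measured, and Lpl had 2 probe sets. Nr1h2 was tied to none and has only a value in the authors' deposited table. The list was selected on results of the same comparison, the log2 differences between KO and WT. The differences of its members are therefore given below as descriptions, with an error but without a test of the list. Where members past the threshold of the fit over all genes are counted, nothing is read from the count.

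The RNA came from the whole adrenal gland of 2-month-old females and was hybridised to 1-colour Affymetrix arrays. The 4 KO mice carried sf1:Cre and floxed Ezh2 alleles (sf1:Cre; Ezh2 Fl/Fl), so that Ezh2, the histone methyltransferase of Polycomb repressive complex 2, is deleted where the regulatory region of steroidogenic factor 1 drives Cre, which is in steroidogenic cells of the cortex. The 3 WT mice were littermates, and which alleles they carried is not given in the labels. Both groups were on an uncontrolled mixed background, mainly C57BL/6 and SV129. The whole gland also holds medullary, capsular, vascular and immune cells, and may carry adhering fat. Ezh2 itself was at 6.86, 7.04, 7.10 and 7.15 on the KO arrays, against 7.08 on each of the 3 WT arrays. The exons its probe set reads are not known here, so the deletion cannot be checked from it. The 9 measured markers of the adrenal cortex had means of 11.7 to 11.8 on the KO arrays and of 11.6 to 11.7 on the WT arrays, on a log2 scale on which the array medians lay between 5.32 and 5.38.

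Cells cannot break down the sterol ring, so surplus cholesterol is exported. ABCA1 loads cholesterol and phospholipid onto lipid-poor apolipoproteins, ABCG1 loads it onto formed high-density particles, and LCAT esterifies it there. Oxysterols activate the liver X receptors, which pair with retinoid X receptors on a direct repeat of a hexamer and switch on Abca1, Abcg1, Apoe, Pltp, Lpl and Srebf1. In the rodent adrenal cortex the flow also runs inward, since SR-BI, the product of Scarb1, takes cholesteryl esters selectively from high-density lipoprotein for steroid synthesis.

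Abca1 was 3.12-fold lower in KO than in WT glands. It was at 8.85, 8.48, 8.71 and 8.998 on the 4 KO arrays, against 10.36, 10.33 and 10.51 on the 3 WT arrays (RMA log2 values throughout). The groups were separated by 1.33 log2 units, more than the 0.51 between the highest and lowest KO arrays. The KO mean was 8.76 ± 0.22 (SD, n = 4) and the WT mean 10.40 ± 0.10 (SD, n = 3), a log2 difference of -1.64 (SE 0.12, 95% interval -1.92 to -1.36). Among the 22180 genes its difference ranked 27 from the lowest. Leaving out each array in turn gave differences between -1.72 and -1.55.

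The promoters of Abca1 and Pltp are shown because both genes are textbook liver X receptor targets whose differences had opposite signs here. Each is the 250 bases before the gene's start in RefSeq (GRCm38.p6), read 5′ to 3′ on the minus strand, which is the strand of both genes, at chr4:53159896-53160145 for Abca1 and at chr2:164857709-164857958 for Pltp. Capitals mark a direct repeat of the receptor hexamer AGGTCA spaced by 4 bases (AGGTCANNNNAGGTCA, either strand), with at most 3 mismatches in the 12 letters compared, a tolerance set after the sequences were seen.
Abca1: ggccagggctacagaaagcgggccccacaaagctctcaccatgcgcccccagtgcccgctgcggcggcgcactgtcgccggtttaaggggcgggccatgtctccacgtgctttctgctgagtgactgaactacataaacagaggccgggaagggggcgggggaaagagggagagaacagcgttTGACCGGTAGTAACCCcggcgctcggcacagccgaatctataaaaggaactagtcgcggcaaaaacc
Pltp: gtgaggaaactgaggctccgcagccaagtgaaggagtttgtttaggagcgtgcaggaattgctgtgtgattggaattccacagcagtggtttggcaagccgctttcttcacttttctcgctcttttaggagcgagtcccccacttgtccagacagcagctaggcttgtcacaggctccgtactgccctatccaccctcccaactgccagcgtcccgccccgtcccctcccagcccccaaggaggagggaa
The repeat in Abca1 starts 67 bases before the gene's start, lies on the opposite strand and has 3 mismatches. The Pltp window holds none at this tolerance. Such a repeat was found in 18.5% of all 32851 promoter windows of this length. Of the 6 members with a window in the table (Abca1, Apoe, Lcat, Nr1h2, Nr1h3 and Pltp), 2 held it, Abca1 and Lcat, and 0 held an exact AGGTCA or its complement TGACCT, which 14.0% of all windows held. Neither repeat overlaps an exact hexamer. The member counts are per gene and the shares over all are per window, and these 6 members have 9 windows. Lcat had a log2 difference of -0.03. Abca1 and Pltp were picked on their differences and the tolerance was set later, so nothing is read from which of them holds a repeat. Whether the repeat has a part in any difference was not tested.

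The other cholesterol exporter, Abcg1, differed little. Its values were 6.78, 6.75, 6.84 and 6.74 on the KO arrays, against 6.73, 6.63 and 6.67 on the WT arrays. All KO arrays lay above all WT arrays, but by 0.01 log2 units. The log2 difference was 0.10 (SE 0.04, 95% interval -0.002 to 0.21), and 43.5% of all genes had a larger one in either direction. With each array centred on its median the difference of Abcg1 was 0.05.

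Of the liver X receptors, Nr1h3 (LXR alpha, the form rich in macrophages, liver and fat) was at 5.58, 5.77, 5.59 and 5.67 on the KO arrays, against 5.73, 5.98 and 5.97 on the WT arrays. The groups overlapped, since WT replicate 1 lay below KO replicate 2. The difference was -0.24 (SE 0.08, 95% interval -0.43 to -0.06). For Nr1h2 (LXR beta, which is expressed widely) the authors' deposited table gives a log2 fold change of 0.15 with an adjusted p of 0.524.

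**Figure D1:**
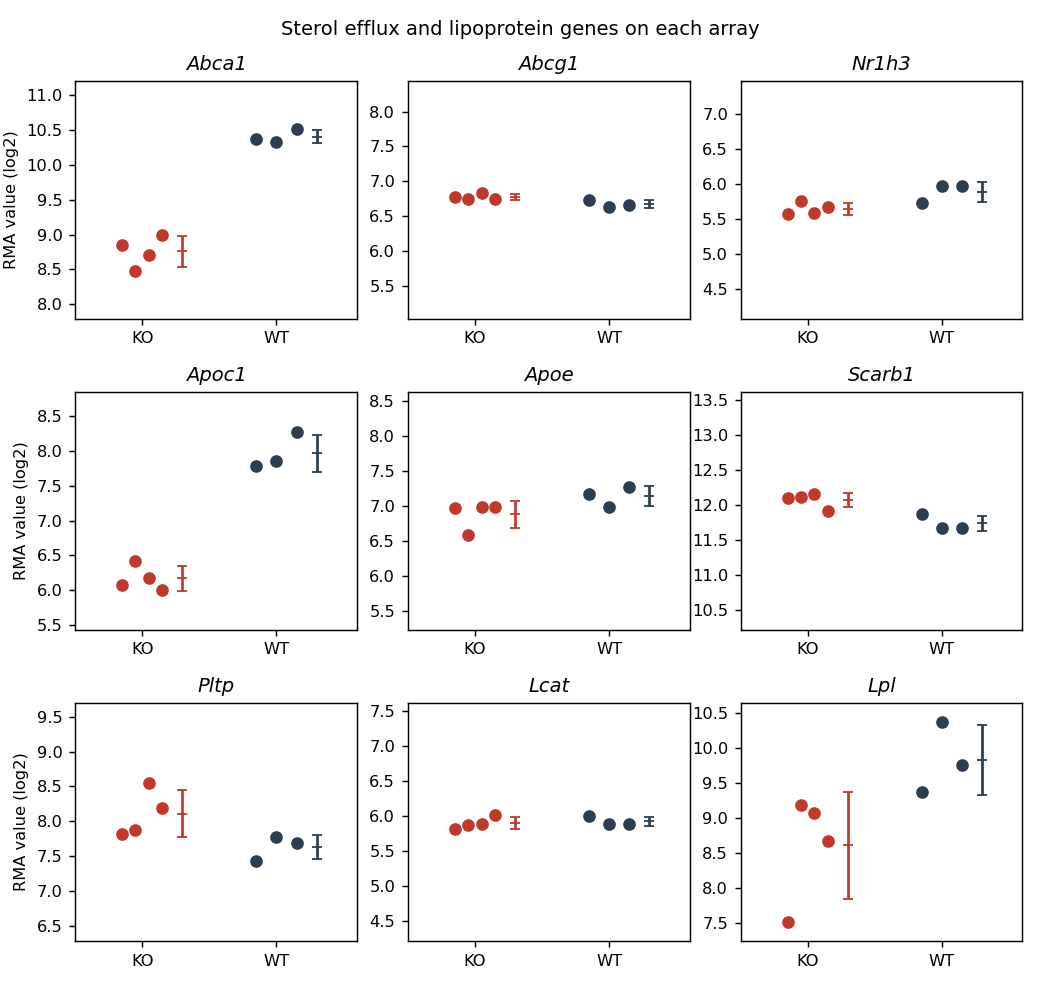
RMA log2 values of the 9 measured genes, with 1 point per array, KO (n = 4) left of WT (n = 3) and the group mean ± SD beside the points. Every panel spans the same 3.4 log2 units, so distances can be compared between panels. Abca1 and Apoc1 show groups that lie wholly apart, and Lpl shows the widest spread within KO, with 1 array at 7.51.

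Apoc1, a small apolipoprotein that inhibits lipoprotein lipase and hinders the uptake of remnant particles, was 3.47-fold lower in KO. It was at 6.08, 6.42, 6.18 and 6.01 on the KO arrays, against 7.78, 7.85 and 8.27 on the WT arrays. The gap between the groups was 1.36 log2 units, and WT replicate 3 stood above the other WT arrays. The means were 6.17 ± 0.18 in KO (SD, n = 4) and 7.97 ± 0.27 in WT (SD, n = 3), a log2 difference of -1.79 (SE 0.14, 95% interval -2.13 to -1.46). Among the 9 measured genes this was the lowest difference, and it ranked 23 from the lowest of the 22180. It lay between -1.89 and -1.64 when each array was left out in turn. Among the KO arrays, the order of Apoc1 was the reverse of that of Abca1: KO replicate 2 was the highest for Apoc1 and the lowest for Abca1, and KO replicate 4 was the lowest for Apoc1 and the highest for Abca1. With 4 arrays this order is a description.

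Apoe, the ligand by which remnant particles bind their receptors on cells, is the immediate neighbour of Apoc1 on chromosome 7. It was at 6.97, 6.59, 6.99 and 6.99 on the KO arrays, against 7.18, 6.99 and 7.27 on the WT arrays. The groups overlapped, and KO replicate 2 lay apart from the other KO arrays. The log2 difference was -0.26 (SE 0.12, 95% interval -0.54 to 0.02), and it was -0.17 without KO replicate 2.

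In the order of protein-coding genes of GRCm38.p6, Apoc1 is followed on the side away from Apoe by Apoc4 and Apoc2. Apoc2, the activator of lipoprotein lipase, was at 6.22 ± 0.11 in KO (SD, n = 4) and 6.47 ± 0.07 in WT (SD, n = 3), a log2 difference of -0.26 (limma adjusted p = 0.0673). For Apoc4, whose probe set is also annotated to Apoc2, the authors' deposited table gives a log2 fold change of -0.35 with an adjusted p of 0.114. On the other side of Apoe, Tomm40, a channel subunit of the mitochondrial outer membrane, had a log2 difference of -0.02 (limma adjusted p = 0.918), and the adhesion molecule gene Nectin2 one of 0.24 (limma adjusted p = 0.125). Of 8 measured genes fixed as neighbours, 0 passed the limma test in either direction, beside 8.69% of all genes. An unadjusted p under 0.05 was reached by 2 of them, beside 22.8% of all genes. The median log2 difference of the 8 was -0.04 (-0.07 without KO replicate 1), beside 0.0004 over all genes.

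**Figure D2:**
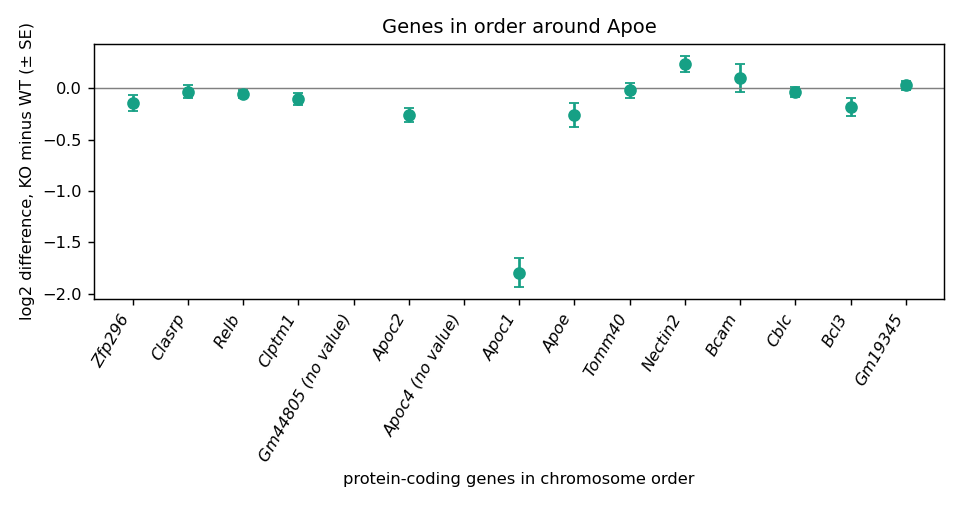
Log2 difference, KO minus WT (± SE of limma), of the 15 protein-coding genes in chromosome order around Apoe, of which 2 have no value. Apoc1 lies at -1.79, and each of the other 12 genes with a value lies between -0.26 and 0.24.

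Scarb1, the receptor through which the gland takes up cholesteryl esters, was 1.26-fold higher in KO. Its values were 12.09, 12.11, 12.16 and 11.92 on the KO arrays, against 11.86, 11.68 and 11.67 on the WT arrays. KO replicate 4 exceeded WT replicate 1 by 0.06, so the groups only just failed to touch. The log2 difference was 0.34 (SE 0.08, 95% interval 0.16 to 0.52).

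Pltp, which moves phospholipid between lipoproteins and remodels high-density particles, was at 7.82, 7.88, 8.54 and 8.20 on the KO arrays, against 7.44, 7.77 and 7.69 on the WT arrays. All KO arrays lay above all WT arrays, by 0.05, and the KO arrays spread over 0.73. The difference was 0.48 (SE 0.18, 95% interval 0.05 to 0.91), or 0.33 without KO replicate 3, the highest of them. It was 0.83 with the mean of the macrophage markers as a covariate.

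Lcat, which esterifies cholesterol on high-density lipoprotein and is made mostly in liver, was at 5.81, 5.87, 5.89 and 6.01 on the KO arrays, against 6.00, 5.89 and 5.88 on the WT arrays. The groups overlapped throughout, with a difference of -0.03 (SE 0.06, 95% interval -0.17 to 0.11) that turned to 0.009 without WT replicate 1.

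Lpl, the enzyme that frees fatty acids from triglyceride-rich lipoproteins at the vessel wall and that fat cells make in quantity, was 2.34-fold lower in KO on average. Its brighter probe set was at 7.51, 9.18, 9.07 and 8.66 on the KO arrays, against 9.38, 10.37 and 9.76 on the WT arrays. The groups did not overlap, but KO replicate 1 stood well below the other KO arrays. The means were 8.61 ± 0.76 in KO (SD, n = 4) and 9.83 ± 0.50 in WT (SD, n = 3), a log2 difference of -1.22 (SE 0.43, 95% interval -2.24 to -0.21). The dimmer probe set was at 4.58, 5.30, 5.40 and 4.94 on the KO arrays, against 5.40, 6.56 and 6.25 on the WT arrays, with a difference of -1.02 (SE 0.31). Both probe sets were lowest on KO replicate 1 and highest on WT replicate 2. Without KO replicate 1 the difference of the brighter one was -0.86.

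The mean of the 8 measured fat cell markers followed the brighter Lpl probe set in rank within each group. It was 6.82, 8.63, 8.50 and 7.76 on the KO arrays, against 8.14, 9.32 and 9.13 on the WT arrays. KO replicates 2 and 3 had more fat cell signal than WT replicate 1 and less Lpl by the brighter probe set. By the dimmer one KO replicate 3 and WT replicate 1 had the same value, 5.40. None of the 8 markers passed the limma test, beside 8.69% of all genes, and 1 had an unadjusted p under 0.05, beside 22.8%. All 8 differences were below 0 (median -0.82, from -2.88 for Ucp1 to -0.10 for Plin1). The median was -0.40 without KO replicate 1, and Ucp1 passed the test without WT replicate 1. With the fat marker mean as a covariate the difference of Lpl was -0.44 (SE 0.17), and that of Abca1 was -1.75 and that of Apoc1 -1.64.

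**Figure D3:**
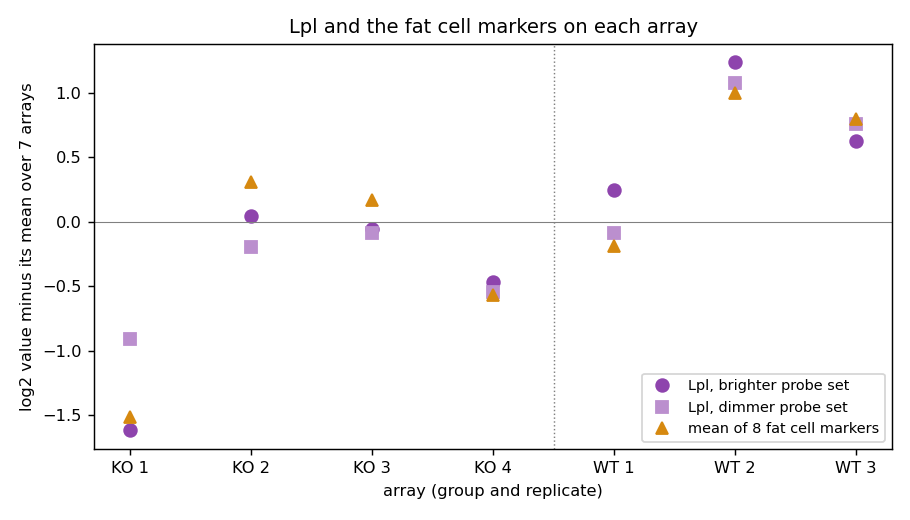
Log2 value minus its mean over the 7 arrays for both Lpl probe sets and for the mean of 8 fat cell markers, with KO arrays left of the dotted line and WT arrays right of it. All 3 are lowest on KO replicate 1 and highest on WT replicate 2. WT replicate 1 lies below KO replicates 2 and 3 for the fat markers but above them for the brighter Lpl probe set.

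In the fit of limma over all 22180 genes, 3 of the 9 measured members had a Benjamini-Hochberg adjusted p under 0.05, where 8.69% of all genes did. Abca1 and Apoc1 were lower, beside 3.55% of all genes, and Scarb1 was higher, beside 5.14%. For 6 of the 9 the values of both groups were fully separate, beside 20.2% of all genes. KO lay below WT for 3 (Abca1, Apoc1 and Lpl), beside 9.86% of all genes, and above it for 3 (Abcg1, Scarb1 and Pltp), beside 10.3%. An unadjusted p under 0.05 was reached by 6 of the 9, beside 22.8% of all genes. Of all calls 59.1% were higher in KO, or 43.1% with each array centred on its median. Since the list was chosen with this comparison known, nothing is read from these counts. The median log2 difference of the 9 was -0.24, beside 0.0004 over all genes. Scarb1 was not past the threshold without KO replicate 1, 2 or 3 or without WT replicate 2 or 3, where the count of higher members was 0, and Nr1h3 passed it without WT replicate 1, where 3 members were lower.

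**Figure D4:**
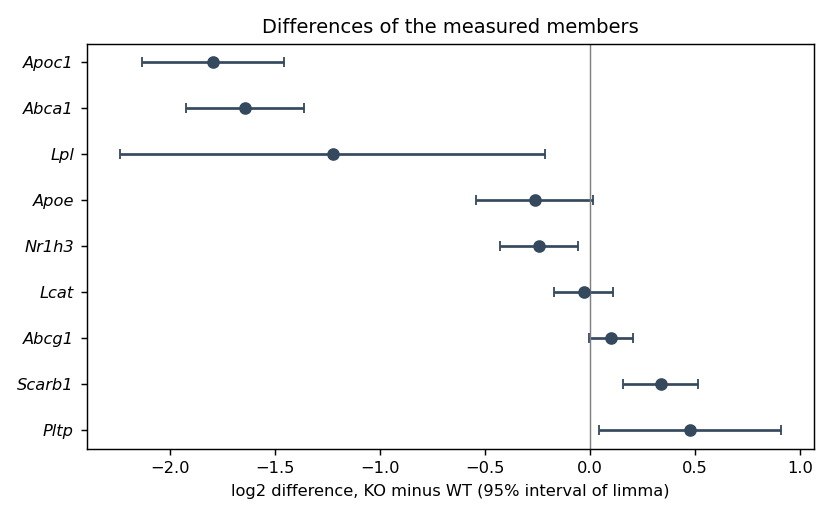
Log2 difference, KO minus WT, of the 9 measured genes with the 95% interval of limma, ordered from the lowest at the top. Apoc1 (-1.79) and Abca1 (-1.64) have narrow intervals far below 0, Lpl (-1.22) has the widest one, and Scarb1 (0.34) and Pltp (0.48) lie above 0.

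Markers of other cells differed between the same arrays, and since whole glands were measured, fewer cells of a type and less RNA per cell cannot be told apart. Over all genes 5.14% rose and 3.55% fell by the limma test, and 22.8% had an unadjusted p under 0.05. All 4 measured X-zone markers (a transient zone next to the medulla) fell by the limma test, and their mean was 6.46 to 7.09 on the KO arrays, against 9.17 to 9.51 on the WT arrays. The call of Pik3c2g was lost without any single array but WT replicate 2. All 8 chromaffin markers rose, with means of 10.5 to 10.7 in KO and 9.58 to 9.68 in WT. Of 9 capsule and stroma markers 5 rose, with means of 8.24 to 8.90 in KO and 7.70 to 7.82 in WT. The count was 2 (Lum and Tcf21) without WT replicate 2 or 3 and 3 without KO replicate 2 or 4. Of 14 macrophage markers 1 fell, the lysozyme gene Lyz2 (-0.71, limma adjusted p = 0.00427), and the count was 2 without KO replicate 3. The mean of the 14 was 6.82 to 7.29 in KO and 7.25 to 7.37 in WT. Of the 14 macrophage differences 11 lay below 0 and 3 above, with a median of -0.26, and 4 had an unadjusted p under 0.05. Of 8 endothelial markers 2 fell, with means of 8.39 to 8.74 in KO and 8.71 to 8.81 in WT. Both of these calls, Tek and Plvap, were lost without KO replicate 2 or any 1 of the WT replicates, and 1 of them without KO replicate 1, 3 or 4. Of the 8 endothelial differences 6 lay below 0 and 2 above, the highest at 0.28 for Cdh5. Without KO replicate 1, Cdh5 passed as higher and Flt1 as lower. None of 9 cortical and none of 5 glial markers passed the test, with 6 and 1 at an unadjusted p under 0.05. Of the 9 cortical differences 5 lay above 0 and 4 below. Without KO replicate 1 a cortical marker passed as lower, and without WT replicate 1 another passed as higher. A glial marker passed as higher without KO replicate 2. RMA values have no 0, so no marker can be called absent. The part of these cell types in the differences of Abca1, Apoc1, Scarb1 and Pltp was not tested beyond 3 marker means used as covariates. Beside the values for fat above, Abca1 was at -1.54 and Apoc1 at -1.90 with the macrophage mean. With the chromaffin mean, whose values do not overlap between KO and WT, Abca1 was at -1.09 (SE 0.76) and Apoc1 at -1.51 (SE 0.95), and neither was past the threshold.

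Of 14 measured liver X receptor targets outside the list of members, 1 rose and 1 fell by the limma test, beside 5.14% and 3.55% of all genes. Of the 14, 6 had an unadjusted p under 0.05, beside 22.8% of all genes. Apod, a lipocalin that binds small lipids, was at 7.06 ± 0.26 in KO (SD, n = 4) and 5.58 ± 0.25 in WT (SD, n = 3), a rise of 1.48 (SE 0.17, adjusted p = 0.00336 by limma) or 2.79-fold, and passed without any single array. Srebf1, which encodes the SREBP-1 factor of fatty acid synthesis, was at 7.54 ± 0.09 in KO (SD, n = 4) and 7.87 ± 0.13 in WT (SD, n = 3), a log2 difference of -0.32 (SE 0.08, limma adjusted p = 0.0468). That call was lost without WT replicate 2 or 3 or KO replicate 2, 3 or 4 (limma adjusted p between 0.101 and 0.165). Of the remaining 12, Mlxipl, which encodes the carbohydrate-sensing factor ChREBP, had a log2 difference of -0.998 (SE 0.27, limma adjusted p = 0.0741), and Tgm2, a transglutaminase, one of 0.26 (limma adjusted p = 0.111). The targets had a median log2 difference of -0.17, or -0.08 without KO replicate 1 and 0.03 with the fat marker mean as a covariate, beside 0.0004 over all genes, and 6 of them lay above 0 and 8 below. Arl4c and Scd2, also of this list but without a probe set, have in the authors' deposited table log2 fold changes of -0.18 (adjusted p = 0.176) and -0.15 (adjusted p = 0.352). None of 8 retinoid X receptors and coregulators passed the limma test, beside 8.69% of all genes, and 0 had an unadjusted p under 0.05, beside 22.8%. Their differences lay between -0.18 for the corepressor Nrip1 and 0.03 for the coactivator Ncoa2.

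**Figure D5:**
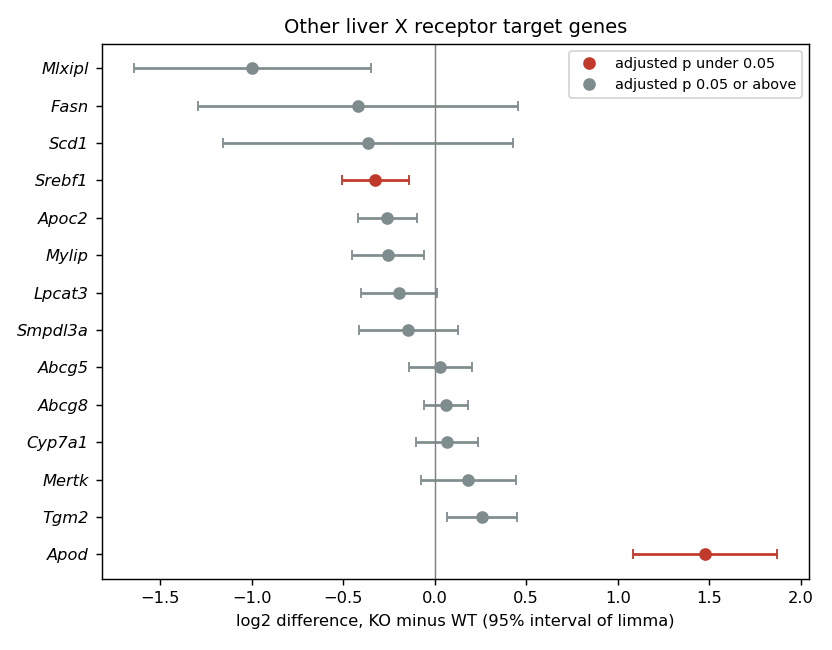
Log2 difference, KO minus WT, of the 14 measured liver X receptor targets outside the list of members, with the 95% interval of limma, red where the adjusted p was under 0.05. Apod lies at 1.48 and Srebf1 at -0.32, and the intervals of Scd1 and Fasn, enzymes of fatty acid synthesis, are wide.

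Among 9 other lipid transporters of the ABC family, 1 rose, Abca5, a lysosomal transporter, beside 5.14% of all genes. It was at 6.84 ± 0.09 in KO (SD, n = 4) and 6.53 ± 0.06 in WT (SD, n = 3), a log2 difference of 0.32 (SE 0.06, limma adjusted p = 0.0188). Its adjusted p by limma was 0.0509 to 0.0616 without KO replicate 4 or any 1 of the WT replicates. Abcg4, a close relative of Abcg1, had a difference of -0.12 (limma adjusted p = 0.673). Unadjusted p-values of limma under 0.05 were found for 2 of the 9 transporters and 4 of the 12 other apolipoproteins, beside 22.8% of all genes. Of 12 other apolipoproteins, Apod rose as given above and Apof fell, beside 5.14% and 3.55% of all genes. Apof, which in humans inhibits lipid transfer between lipoproteins, was at 4.30 ± 0.14 in KO (SD, n = 4) and 5.63 ± 0.63 in WT (SD, n = 3), a log2 difference of -1.33 (SE 0.27, limma adjusted p = 0.0252). The WT arrays of Apof spread from 5.01 to 6.27, and its call was lost without WT replicate 3 or without any 1 of the KO replicates (limma adjusted p between 0.0588 and 0.0988).

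None of 15 other lipoprotein receptors and their partners passed the limma test, beside 8.69% of all genes. An unadjusted p under 0.05 was reached by 6 of them, beside 22.8% of all genes. Of the fits that left out 1 array, the scavenger receptor Stab1 passed only in that without WT replicate 2. Stab1 had a log2 difference of -0.29 (limma adjusted p = 0.0885), and the receptor chaperone Lrpap1 one of 0.20 (limma adjusted p = 0.126). Among 12 other lipases and partners of Lpl, 1 fell, beside 3.55% of all genes. Of these 12, 2 had an unadjusted p under 0.05, beside 22.8% of all genes. Mgll, the monoacylglycerol lipase, was at 7.24 ± 0.25 in KO (SD, n = 4) and 8.46 ± 0.05 in WT (SD, n = 3), a log2 difference of -1.22 (SE 0.13, limma adjusted p = 0.00287), and passed without any single array. Gpihbp1, which carries Lpl across the endothelium, had a difference of 0.44 (SE 0.12, limma adjusted p = 0.0788).

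Inside the cell, 3 of 15 genes of sterol storage and movement fell and 0 rose, beside 3.55% and 5.14% of all genes. Of the 15, 8 had an unadjusted p under 0.05, beside 22.8% of all genes. The sterol carriers Stard4 and Stard5 had log2 differences of -0.70 (SE 0.12, limma adjusted p = 0.0155) and -0.75 (SE 0.13, limma adjusted p = 0.0156). Gramd1b, a protein that moves cholesterol from the plasma membrane to the endoplasmic reticulum, had one of -0.33 (SE 0.07, limma adjusted p = 0.0255). The call of Stard4 was lost without KO replicate 2 (limma adjusted p = 0.0506), that of Stard5 without any 1 of the WT replicates (limma adjusted p up to 0.0665) and that of Gramd1b without any 1 of the WT replicates or KO replicate 2 or 4 (limma adjusted p up to 0.100). The median difference of the list was -0.16, or -0.10 without KO replicate 1. Of its 15 differences 12 lay below 0 and 3 above, the highest at 0.30 for Npc1 (limma adjusted p = 0.0742). Npc1 passed as higher without KO replicate 4. Osbp passed as lower without KO replicate 1, and Plin2 as lower without WT replicate 1. Soat1, which esterifies cholesterol in the adrenal, has in the authors' deposited table a log2 fold change of -0.34 (adjusted p = 0.0573). Of 7 genes that make or clear oxysterols, the ligands of the liver X receptors, 1 fell, beside 3.55% of all genes. Of the 7, 2 had an unadjusted p under 0.05, beside 22.8% of all genes. Hsd3b7, a dehydrogenase that acts on hydroxylated sterols, was at 6.89 ± 0.12 in KO (SD, n = 4) and 7.45 ± 0.07 in WT (SD, n = 3), a log2 difference of -0.56 (SE 0.07, limma adjusted p = 0.00502), and passed without any single array. The neuronal cholesterol hydroxylase Cyp46a1 had a difference of 0.22 (limma adjusted p = 0.0731).

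The profiles most like those of the 4 widest-ranging members were sought among all genes, by the root mean square difference of values centred on each gene's mean over the 7 arrays. Abca1 was closest to Cth, a cystathionine lyase (0.13 log2 units), the alanine transaminase gene Gpt2 (0.16) and the sialyltransferase gene St3gal1 (0.17). Apoc1 was closest to the heat shock gene Hspa1a (0.17), the kininogen gene Kng2 (0.18) and Cth (0.21). Its closest member was Abca1, at 0.29. Lpl was closest to Pdk4, a kinase that restrains pyruvate oxidation (0.20), the amino acid transporter gene Slc36a2 (0.22) and the bicarbonate transporter gene Slc4a4 (0.25), and no other member came nearer than 0.60. Pltp was closest to the matricellular gene Ccn2 (0.08), the lysophosphatidic acid receptor gene Lpar4 (0.08) and the exocytosis gene Sytl4 (0.09). These distances describe 7 arrays and carry no test.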

How the data were processed

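Log2 values of 41345 probe sets on 7 arrays were deposited, made by the authors with RMA (background correction, quantile normalization and probe summary), per the submitters' processing notes; no RMA version or genome build is named there. The authors also deposited a table of log2 fold changes, p-values and adjusted p-values for 28638 symbols, with no test named in it. Probe sets with 1 annotated symbol (23521) were used, with the brightest probe set of each gene, which left 22180 genes and no filter on low values. KO was compared with WT by lmFit and eBayes of limma 3.58.1 (R 4.3.3, statmod 1.5.0) without covariates, two-sided, with Benjamini-Hochberg adjustment over all genes and a threshold of 0.05. The number of arrays limits the precision, with 5 residual degrees of freedom and a median SE of 0.07. On simulated data with 200 of 22180 genes changed, the share found was 92.7% at a change of 1 log2 unit and 65.7% at 0.5, and 5.33% of calls fell on unchanged genes.

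The members, lists and naming rule were chosen with earlier results of these data known. From each list the text may name every called gene and up to 3 others with the smallest p; other genes named (Scd1, Fasn, Tomm40, Plin1 and those with values from the authors' deposited table only) were chosen after their values were seen. The labels call the arrays biological replicates. Promoters came from RefSeq (GRCm38.p6). Replicate numbers were not used to pair the arrays in the main fit (see the closing section). Alternatives covered the filter, probe sets, variance prior, normalization, array weights, replicate blocks, cell marker means as covariates, and leaving out each array. Some genes of the lists are not reported here.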

Additional observations from a re-analysis of the deposited data

Results flagged for a closer look

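Among 81 genes examined in the 4 KO arrays, 2 had 1 array far from the rest by Dixon's ratio of the gap to the range, where chance flags about 1 in 20 such groups. Apoe had a ratio of 0.956, with KO replicate 2 at 6.59 and the other KO arrays at 6.97, 6.99 and 6.99. Rxrg, a retinoid X receptor, had a ratio of 0.833, with KO replicate 1 at 4.05 and the other KO arrays at 4.27, 4.28 and 4.32.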

How the results depend on the processing

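As a description, Abca1 had log2 differences of -1.75 to -1.54 and Apoc1 of -1.90 to -1.64 over the alternatives other than the chromaffin covariate. With the chromaffin marker mean as a covariate, which does not overlap between the groups and so cannot be told apart from genotype, 0 genes were called in either direction, among them 0 members and 0 liver X receptor targets, Abca1 was at -1.09 and Apoc1 at -1.51. The count of all genes, 1140 higher and 788 lower, was 597 and 380 with the fat covariate and 374 and 209 with the macrophage covariate, and 1329 genes were lower with arrays centred on their medians. With a replicate block by the title number it was 523 and 286 (0 members higher), and by the description number 610 and 393. KO replicate 4 by the title, and KO replicate 1 by the description, has no WT array of its number. That array adds nothing to the difference in the block fit, which also has fewer residual degrees of freedom. The lower counts are therefore not an effect of pairing alone. Whether the numbers pair the arrays cannot be settled from so few deviations from group means. Same-numbered arrays had correlations of deviations of -0.11 to 0.07 by the title and of -0.07 to 0.21 by the description. The highest of all, 0.21, was that of KO replicate 3 with WT replicate 2, which share a description number. Not every array correlated best with its own number. Higher members numbered 0 with the fat and the macrophage covariates. The calls of Srebf1, Abca5, Apof, Stard4 and Stard5 were lost with either of these covariates, and that of Gramd1b with the macrophage one. All of these calls were also lost with a replicate block by the title number, the description number or both. That of Hsd3b7 was lost with the title block (limma adjusted p = 0.0517). Those of Apod and Mgll held in every fit but that with the chromaffin covariate. Lower targets numbered 3 without genes under the median level and with centred arrays, and 2 after quantile normalization. Without each array in turn, all genes numbered 594 to 945 higher and 322 to 654 lower, higher members 0 to 1, lower members 2 to 3, higher targets 1 to 2 and lower targets 0 to 1. Of the differences of the other members, Apoe, Lcat and Lpl had the opposite sign with the chromaffin covariate (0.35, 0.54 and 2.03). The cause of these changes was not tested.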

Other observations

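Apoe carried the same deposited value, 6.99, on KO replicates 3 and 4 and on WT replicate 2, and Lcat the same value, 5.89, on KO replicate 3 and WT replicate 2. For 711 genes the 3 WT arrays held 1 value, among them Ezh2 and 0 members.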
